A study of Mus musculus with 6 samples.

Results

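Transcripts of the proteasome genes were measured in 2 populations of mouse splenic natural killer (NK) cells that carry different inhibitory Ly49 receptors. Members were the rows of the deposited expression table whose mouse symbol starts with Psma, Psmb, Psmc, Psmd, Psme, Psmf or Psmg. Of 57 annotated genes with such a symbol, 43 had values among the 8520 genes of the table, every one of which reached at least 10.01 CPM (reads of a gene per 1000000 reads of its library) in at least 2 libraries. All 43 are protein coding, and the other 14 (8 protein-coding genes and 6 pseudogenes) were not analysed here. Both populations were CD3-negative, NK1.1-positive spleen cells of C57BL/6 mice aged 6 to 8 weeks, with no treatment; Ly49G+ cells bound the Ly49G antibody but not the antibody shared by Ly49C and Ly49I, and Ly49I+ cells the reverse. Each group had 3 libraries, described by the submitters as biological replicates prepared from 20 mice, with no word on how the mice were divided, so a p-value here reflects only how far these libraries differ. Library totals ran from 33599679 to 40892154 reads.

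The proteasome is the barrel-shaped protease that degrades ubiquitin-tagged proteins. Its core particle has outer alpha rings, which gate the entrance, and inner beta rings, which hold the catalytic sites, and a regulatory particle of base and lid unfolds substrates and removes ubiquitin. In the immunoproteasome, the interferon-inducible catalytic subunits Psmb8, Psmb9 and Psmb10 take the places of Psmb5, Psmb6 and Psmb7, and the activator cap made of Psme1 and Psme2 can open the core. This form is abundant in lymphocytes and alters the peptides available for MHC class I, the ligands of Ly49 receptors.

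No proteasome gene was called different between Ly49G+ and Ly49I+ NK cells by limma's moderated test at an adjusted p of 0.05. The count was 0 of 43 members, where the same test called 3.59% of the 8520 genes (1.82% with Ly49G+ higher and 1.77% with Ly49I+ higher). At an unadjusted p of 0.05 it was 3 members, Psma4, Psme1 and Psma3, each higher in Ly49G+, where 19.8% of all genes reached that level. Differences, given throughout as mean log2 CPM in Ly49G+ minus Ly49I+, ran from -0.32 for Psmd9 to 0.28 for Psma4. Their median was 0.03 for the members and -0.02 for all genes, and the median size without sign was 0.09 for the members and 0.13 for all genes. For 42 of the 43 members the 95% confidence interval of the difference lay within 1.5-fold in either direction, as it did for 7227 of the 8520 genes. The exception among members was Psmd9 at -0.77 to 0.12. With the replicate number as a block, 2 members were called, Psme1 and Psma4, both higher in Ly49G+, where the same fit called 11.7% of all genes (5.69% with Ly49G+ higher and 5.96% with Ly49I+ higher).

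**Figure D1:**
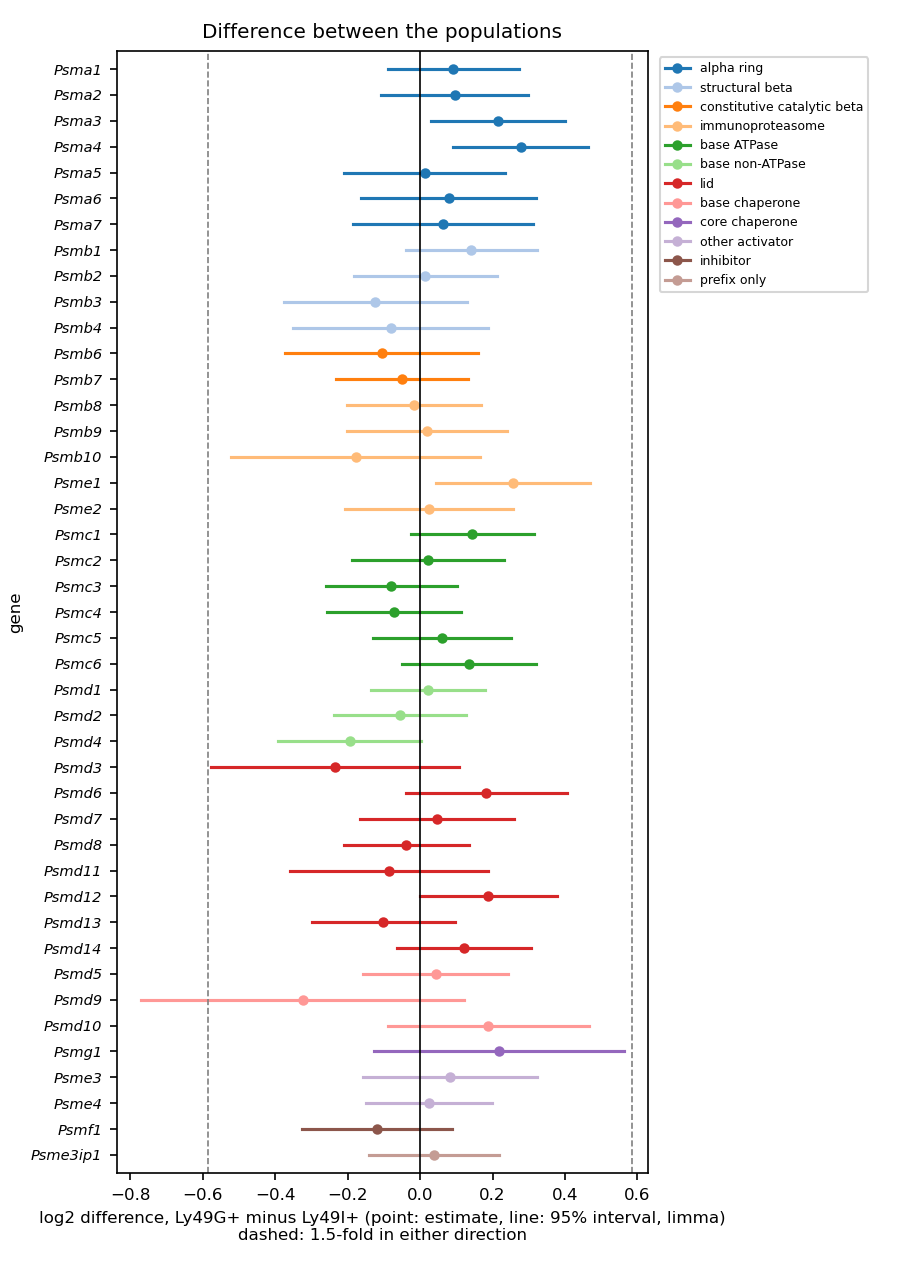
Difference in log2 CPM between Ly49G+ and Ly49I+ for each of the 43 proteasome genes, ordered by role, with points at the limma estimate and bars for its 95% confidence interval. Estimates sit between -0.32 and 0.28, and Psmd9 has the one interval that reaches beyond 1.5-fold.

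Sequence just upstream of the RefSeq start is shown for the 5 immunoproteasome genes, because they share inducibility by interferon, and for Psmc1, Psmd12, Psmd6 and Psmd4, 4 of the 6 members whose groups did not overlap. The windows of the other two, Psma3 and Psma4, are not shown because they reach into sequence that RefSeq counts as part of the gene; Psma3 held a CCAAT box and Psma4 none of the motifs searched. RefSeq windows on GRCm38.p6 were found for 37 of the 43 members, and not for Psmb1, Psmb2, Psmb7, Psmc3, Psmd3 and Psmd7. Each line reads 5′ to 3′ along the gene's own strand and holds the 250 bases before the start. Capitals mark matches, on either strand, to any of the motifs searched: the interferon-stimulated response element (GAAA, any 2 bases, GAAA), the STAT-binding element TTCNNNGAA, the antioxidant response element TGACNNNGC, the CCAAT box CCAAT and the ETS-family element CCGGAAGT. The immunoproteasome windows are chr17:34197945-34198194 (plus strand, Psmb8), chr17:34187331-34187580 (minus, Psmb9), chr8:105938393-105938642 (minus, Psmb10), chr14:55578244-55578493 (plus, Psme1) and chr14:55591102-55591351 (minus, Psme2, the more upstream of its windows).
Psmb8: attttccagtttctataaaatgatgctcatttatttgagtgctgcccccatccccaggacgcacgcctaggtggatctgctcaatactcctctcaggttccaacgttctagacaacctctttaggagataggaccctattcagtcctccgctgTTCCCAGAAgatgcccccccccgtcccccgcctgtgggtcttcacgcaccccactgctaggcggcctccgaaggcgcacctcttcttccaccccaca
Psmb9: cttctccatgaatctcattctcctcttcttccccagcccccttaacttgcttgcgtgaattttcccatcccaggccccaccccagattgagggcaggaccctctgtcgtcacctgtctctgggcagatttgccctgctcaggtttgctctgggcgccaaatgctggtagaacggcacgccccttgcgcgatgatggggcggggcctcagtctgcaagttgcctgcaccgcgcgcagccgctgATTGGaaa
Psmb10: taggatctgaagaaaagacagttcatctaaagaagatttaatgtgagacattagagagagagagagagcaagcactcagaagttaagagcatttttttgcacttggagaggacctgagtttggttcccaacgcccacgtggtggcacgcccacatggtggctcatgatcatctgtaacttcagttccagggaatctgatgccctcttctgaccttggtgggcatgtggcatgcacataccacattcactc
Psme1: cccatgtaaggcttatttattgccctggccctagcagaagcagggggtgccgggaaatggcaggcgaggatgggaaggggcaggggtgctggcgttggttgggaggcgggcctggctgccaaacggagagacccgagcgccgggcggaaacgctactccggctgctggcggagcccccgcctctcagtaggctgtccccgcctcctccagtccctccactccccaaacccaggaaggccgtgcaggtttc
Psme2: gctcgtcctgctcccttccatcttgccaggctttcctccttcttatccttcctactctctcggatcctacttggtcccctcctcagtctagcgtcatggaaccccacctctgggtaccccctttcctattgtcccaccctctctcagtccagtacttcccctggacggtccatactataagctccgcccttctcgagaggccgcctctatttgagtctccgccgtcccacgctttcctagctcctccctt

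The windows of the regulatory-particle genes are chr12:100109952-100110201 (plus, Psmc1), chr11:107479278-107479527 (plus, Psmd12), chr14:14120946-14121195 (minus, Psmd6) and chr3:95042615-95042864 (minus, Psmd4). Psmc1, Psmd12 and Psmd6 have an ETS-family element near the start, Psmc1 a CCAAT box as well and Psmd12 an antioxidant response element at the far end. Psmd4 has no match to CCGGAAGT, though its window holds ccggaagc, which differs in the last base. Its capitals mark a CCAAT box and an interferon-stimulated response element. Psmc2 and Psme4, which hold the ETS-family letters too, had differences of 0.02 and 0.03. Any relation of motifs to the differences was not tested.
Psmc1: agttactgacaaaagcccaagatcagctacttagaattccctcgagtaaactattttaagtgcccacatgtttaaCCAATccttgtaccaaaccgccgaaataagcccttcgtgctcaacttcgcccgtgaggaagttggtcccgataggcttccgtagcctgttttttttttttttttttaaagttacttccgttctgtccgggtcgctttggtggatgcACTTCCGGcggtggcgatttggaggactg
Psmd12: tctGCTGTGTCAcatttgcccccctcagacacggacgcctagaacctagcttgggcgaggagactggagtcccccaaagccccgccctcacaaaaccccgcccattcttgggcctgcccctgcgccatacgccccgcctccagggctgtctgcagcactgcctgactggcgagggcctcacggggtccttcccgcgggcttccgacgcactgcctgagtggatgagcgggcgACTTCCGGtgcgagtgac
Psmd6: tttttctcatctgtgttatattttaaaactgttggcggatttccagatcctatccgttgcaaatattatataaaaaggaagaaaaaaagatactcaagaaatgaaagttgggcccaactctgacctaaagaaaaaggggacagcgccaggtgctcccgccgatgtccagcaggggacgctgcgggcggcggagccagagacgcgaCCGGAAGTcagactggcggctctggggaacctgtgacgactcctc
Psmd4: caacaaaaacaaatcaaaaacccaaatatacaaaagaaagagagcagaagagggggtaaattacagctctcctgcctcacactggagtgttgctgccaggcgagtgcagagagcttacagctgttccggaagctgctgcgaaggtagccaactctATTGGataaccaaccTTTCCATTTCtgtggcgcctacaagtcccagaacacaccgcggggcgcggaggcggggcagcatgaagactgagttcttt

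Among the immunoproteasome genes, the letters of a STAT-binding element occurred in Psmb8, a CCAAT box occurred in Psmb9, and none of the searched letters occurred in Psmb10, Psme1 or Psme2. The ETS-family letters were found in 5 of the 37 members with a window (13.5%; Psmc1, Psmc2, Psmd12, Psmd6 and Psme4) and in 3.23% of all 27025 genes with one. The interferon-stimulated response element was found in 3 members (8.11%; Psmb3, Psmd4 and Psmd9) and in 3.46% of all genes. For the CCAAT box the shares were 37.8% of members and 37.5% of all genes, for the antioxidant response element 10.8% and 11.5%, and for the STAT-binding element 5.41% and 8.13%. The 27025 genes include many without values in the expression table, whereas all 37 members have values. Shares among the measured genes alone are not given here. Matches to the 5 motifs did not overlap one another in the windows printed. Psmb9 and Tap1, which encodes a subunit of the peptide transporter of MHC class I loading, are read from opposite strands with starts 226 bases apart, so the Psmb9 window runs into the first bases of Tap1. A match describes letters in a window and no site in use.

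The immunoproteasome genes made up 5 of the 43 members, and 0 of the 5 were called. Psme1, the alpha subunit of the interferon-inducible activator cap (chr14:55578494-55581527 on GRCm38.p6), measured 241, 275 and 267 CPM in Ly49G+ replicates 1, 2 and 3 and 193, 246 and 219 CPM in Ly49I+ replicates 1, 2 and 3. Ly49I+ replicate 1 was the lowest library, and the groups overlapped because Ly49I+ replicate 2 exceeded Ly49G+ replicate 1. The difference was 0.26 ± 0.10 (SE, n = 3 per group), a 1.19-fold higher level in Ly49G+, with an adjusted p of 0.182 by limma. Without Ly49I+ replicate 1 the difference was 0.17 and the adjusted p by limma 0.23. Ly49G+ was the higher of each same-numbered pair of libraries, in 3 of 3 pairs, which held for 23.6% of all genes. In the limma fit with the replicate block the adjusted p was 0.0239. When the log2 values were corrected for transcript GC content, an alternative chosen after seeing the data, the difference was 0.36 and the adjusted p by limma was 0.0159, or 0.00267 with the block as well; that correction called 6.5% of all genes, and 8.15% with the block.

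Psme2, the beta subunit of the same cap, measured 54.8, 66.0 and 53.9 CPM in Ly49G+ and 54.0, 54.1 and 63.2 CPM in Ly49I+. Ly49G+ replicate 2 and Ly49I+ replicate 3 stood above the other libraries, and the difference was 0.03 ± 0.10 (SE, n = 3 per group; adjusted p 0.913 by limma). Of the 100-base windows of its transcript model, 44.5% also occur in the near-copy Psme2b, so reads of Psme2 could have been split or lost in counting and its level is uncertain. Per kilobase of transcript, Psme1 exceeded Psme2 3.90-fold ± 0.35 in Ly49G+ and 3.34-fold ± 0.52 in Ly49I+ (SD, n = 3 each), and that uncertainty applies to both ratios.

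Psmb8, the inducible chymotrypsin-like subunit, measured 101, 105 and 108 CPM in Ly49G+ and 103, 98.5 and 117 CPM in Ly49I+. Psmb9, the inducible subunit that replaces Psmb6, measured 39.2, 37.3 and 36.5 CPM in Ly49G+ and 34.0, 36.2 and 41.8 CPM in Ly49I+. The Ly49G+ libraries of both genes lay inside the range of the Ly49I+ libraries, and the differences were -0.02 ± 0.08 for Psmb8 and 0.02 ± 0.10 for Psmb9 (SE, n = 3 per group). Psmb10, the inducible subunit that replaces Psmb7, measured 59.7, 49.2 and 60.2 CPM in Ly49G+ and 55.7, 55.0 and 83.7 CPM in Ly49I+. Ly49I+ replicate 3 was far above the other libraries for Psmb10. The difference of -0.18 ± 0.16 (SE, n = 3 per group) was 0.02 without that library, so its direction rested on it. Adjusted p-values by limma were 0.93 for Psmb8, 0.935 for Psmb9 and 0.535 for Psmb10. Of the exonic bases of Psmb8, 14.7% overlap a gene on the opposite strand, as do 5.79% of those of Psmb9, where the gene is Tap1. The libraries were made with a stranded kit, but no source used here gives the strand setting of the counting.

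**Figure D2:**
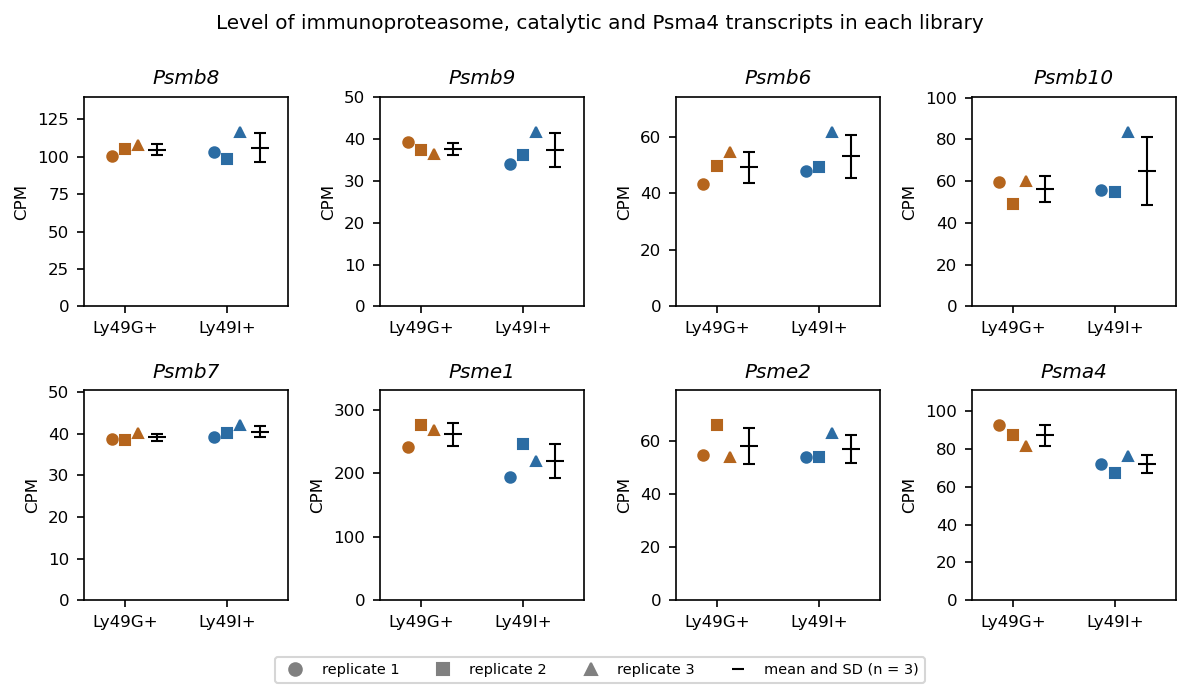
CPM of the 5 immunoproteasome genes, the constitutive catalytic genes Psmb6 and Psmb7, and the alpha ring gene Psma4, with 1 point per library (marker shape for the replicate number) and the group mean with its SD (n = 3) in black. The groups overlap for each gene except Psma4, and Psmb10 in Ly49I+ replicate 3 stands at 83.7 CPM, above 49.2 to 60.2 CPM in the other libraries.

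The constitutive catalytic subunits were close between groups. Psmb6, the caspase-like subunit, measured 43.3, 49.6 and 54.5 CPM in Ly49G+ and 48.0, 49.3 and 61.8 CPM in Ly49I+. Psmb7, the trypsin-like subunit, measured 38.7, 38.5 and 40.2 CPM in Ly49G+ and 39.3, 40.2 and 42.0 CPM in Ly49I+. Their differences were -0.11 ± 0.12 and -0.05 ± 0.08 (SE, n = 3 per group), with adjusted p-values by limma of 0.639 and 0.759. Of the exonic bases of Psmb7, 11.8% overlap Nek6 on the opposite strand. Psmb5, the constitutive partner of Psmb8, was not analysed here.

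Whether inducible subunits made up a different part of the catalytic pool was asked with the ratio of each inducible gene to the constitutive gene it replaces, in the 2 pairs where both had values. The ratio of Psmb9 to Psmb6 per kilobase of transcript was 0.534, 0.443 and 0.396 in Ly49G+ and 0.417, 0.434 and 0.399 in Ly49I+, so the Ly49G+ libraries spread around those of Ly49I+. The ratio of Psmb10 to Psmb7 was 1.36, 1.13 and 1.33 in Ly49G+ and 1.25, 1.21 and 1.76 in Ly49I+, the last library being the highest. Group means were 0.458 ± 0.070 and 0.417 ± 0.018 for Psmb9 to Psmb6, and 1.27 ± 0.12 and 1.41 ± 0.31 for Psmb10 to Psmb7 (SD, n = 3 each). The size of these ratios depends on the transcript models chosen. On the log2 scale, where length cancels, the group differences were 0.12 (exact two-sided permutation p 0.5) and -0.13 (exact permutation p 0.7). Both were 0.7 after Benjamini-Hochberg adjustment over the 2 pairs, and 3 against 3 libraries cannot give a p below 0.1. Without Ly49I+ replicate 3 the difference for Psmb10 to Psmb7 was 0.04, the opposite direction. The difference for Psmb9 to Psmb6 was 0.007 without Ly49G+ replicate 1 and 0.22 without Ly49G+ replicate 3.

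The alpha ring forms the gated ends of the core. Its estimates were above 0 for 7 of 7 measured members, where 46.5% of all genes were above 0. Of the 7, 0 were called. All except Psma7, at 51.6% GC, had a transcript GC content at or below the members' median of 49.8%. Among the 22 members in that range, alpha genes included, 19 were above 0. The median difference of the ring was 0.09, and 0.04 after GC correction. Psma4 (chr9:54950781-54958034) measured 92.3, 87.5 and 81.5 CPM in Ly49G+ and 72.2, 67.0 and 76.3 CPM in Ly49I+. Every Ly49G+ library exceeded every Ly49I+ library, and the difference of 0.28 ± 0.08 (SE, n = 3 per group), or 1.21-fold, was the highest of the 43 members. Its adjusted p by limma was 0.103, and 0.0411 with the replicate block. With the block and the GC correction together it was 0.124. Of the 100-base windows of the Psma4 transcript, 7.69% also occur in Gm6542.

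Psma3 measured 72.04, 74.6 and 68.7 CPM in Ly49G+ and 67.1, 60.2 and 58.5 CPM in Ly49I+. The groups did not overlap, with Ly49G+ higher, and the difference was 0.21 ± 0.08 (SE, n = 3 per group; adjusted p 0.199 by limma). It was 0.09 after GC correction, and 20.6% of the windows of Psma3 also occur in Gm13835. Psma5, for which 27.5% of windows are shared with other loci, measured 27.8, 30.2 and 26.5 CPM in Ly49G+ and 25.9, 29.0 and 28.8 CPM in Ly49I+. Those groups overlapped throughout, and Psma5 had the smallest difference of the ring, 0.01. The other alpha subunits were Psma1, Psma2, Psma6 and Psma7, with differences of 0.09, 0.10, 0.08 and 0.06. Estimates above 0 numbered 7 of 7 under median centring and quantile normalization as well, 6 of 7 after GC correction, where Psma2 was at -0.04, and 5 of 7 without Ly49G+ replicate 2 or without Ly49I+ replicate 1.

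The structural beta subunits, which complete the inner rings without catalysis, split evenly, with 2 of 4 above 0 and 0 called. Psmb1 measured 88.8, 89.1 and 91.1 CPM in Ly49G+ and 77.1, 77.8 and 89.5 CPM in Ly49I+, and Ly49I+ replicate 3 alone reached the Ly49G+ range. Psmb3 measured 45.6, 48.1 and 52.8 CPM in Ly49G+ and 48.2, 49.3 and 63.0 CPM in Ly49I+, with Ly49I+ replicate 3 again the highest. Psmb4 measured 28.0, 29.9 and 34.9 CPM in Ly49G+ and 30.0, 30.8 and 37.5 CPM in Ly49I+. The differences were 0.14 for Psmb1, -0.12 for Psmb3, -0.08 for Psmb4 and 0.02 for Psmb2. The value for Psmb3 was 9.9e-05 without Ly49I+ replicate 3, and 17.99% of its windows occur at other loci.

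In the base of the regulatory particle, the 6 ATPases form the ring that unfolds substrates; 4 of 6 were above 0 and 0 were called. Psmc1 measured 87.1, 85.6 and 83.8 CPM in Ly49G+ and 80.3, 72.3 and 79.6 CPM in Ly49I+. The groups did not overlap, and the difference was 0.14 ± 0.08 (SE, n = 3 per group; adjusted p 0.315 by limma), or 0.10 without Ly49I+ replicate 2. Psmc3 measured 99.4, 103 and 104 CPM in Ly49G+ and 104, 101 and 119 CPM in Ly49I+, with Ly49I+ replicate 3 the highest, and its difference of -0.08 was the lowest of the ring. Without that library it was -0.01, and Psmc4 was then the lowest at -0.02. Psmc5 measured 41.7, 43.2 and 45.6 CPM in Ly49G+ and 40.0, 44.1 and 41.0 CPM in Ly49I+. The groups overlapped for Psmc5 and for the ATPases not given by library, Psmc2, Psmc4 and Psmc6, whose differences were 0.02, -0.07 and 0.13.

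Of the base subunits that are not ATPases, Psmd4, a receptor for ubiquitin chains, was the one member whose Ly49I+ libraries all exceeded its Ly49G+ libraries. It measured 67.0, 64.8 and 62.9 CPM in Ly49G+ and 68.0, 72.7 and 82.7 CPM in Ly49I+. The difference was -0.19 ± 0.09 (SE, n = 3 per group), with an adjusted p of 0.259 by limma, and it was -0.12 without Ly49I+ replicate 3. Psmd2, a scaffold of the base, measured 120, 125 and 131 CPM in Ly49G+ and 134, 119 and 139 CPM in Ly49I+. Psmd1, the other scaffold, measured 86.03, 88.3 and 91.5 CPM in Ly49G+ and 87.6, 87.9 and 86.1 CPM in Ly49I+. Both overlapped between groups, with differences of -0.06 and 0.02.

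The lid, which holds the deubiquitinase Psmd14 and cleaves ubiquitin chains from substrates, had 4 of 8 members above 0 and 0 called. Psmd12 measured 46.8, 47.0 and 50.2 CPM in Ly49G+ and 45.1, 40.8 and 40.5 CPM in Ly49I+. Psmd6 measured 38.7, 31.98 and 34.9 CPM in Ly49G+ and 31.8, 31.5 and 29.5 CPM in Ly49I+. In both, every Ly49G+ library exceeded every Ly49I+ library, Psmd6 by a narrow margin, and the differences were 0.19 ± 0.09 and 0.18 ± 0.10 (SE, n = 3 per group; adjusted p 0.255 and 0.324 by limma). For Psmd6 it was 0.11 without Ly49G+ replicate 1. Psmd3 measured 39.1, 39.6 and 46.9 CPM in Ly49G+ and 39.5, 47.4 and 63.2 CPM in Ly49I+. Its Ly49I+ libraries ran from the bottom of the Ly49G+ range to far above it, and the difference of -0.24 ± 0.15 (SE, n = 3 per group; adjusted p 0.408 by limma) was the lowest of the lid. Without Ly49I+ replicate 3 it was -0.05. Psmd8 measured 93.0, 104 and 95.3 CPM in Ly49G+ and 95.6, 103 and 102 CPM in Ly49I+, all within one range. The difference was 0.12 for Psmd14, 0.05 for Psmd7, -0.09 for Psmd11 and -0.10 for Psmd13. Psmd11 had 1 low library, Ly49G+ replicate 1 at 46.2 CPM, and its difference was 0.07 without it.

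Across all 43 members, 5 had Ly49G+ libraries that all exceeded the Ly49I+ libraries (Psma3, Psma4, Psmc1, Psmd12 and Psmd6) and 1 had the reverse (Psmd4). Together they are 13.95% of members, where 25.8% of all genes had groups that did not overlap (12.5% with Ly49G+ higher and 13.4% with Ly49I+ higher).

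Chaperones that assemble the base were Psmd5, Psmd9 and Psmd10, with 0 of 3 called. Psmd9 measured 8.68, 8.65 and 11.6 CPM in Ly49G+ and 10, 11.1 and 15.3 CPM in Ly49I+. Ly49I+ replicate 3 was the highest and each Ly49I+ library exceeded its same-numbered Ly49G+ library, as it did for 25.9% of all genes; the difference was -0.32 ± 0.20 (SE, n = 3 per group; adjusted p 0.382 by limma), and 25.5% of the exonic bases overlap Gm26745 on the opposite strand. Without Ly49I+ replicate 3 the difference of Psmd9 was -0.14. Psmd10 measured 21.3, 19.8 and 16.98 CPM in Ly49G+ and 17.5, 15.9 and 17.4 CPM in Ly49I+, with a difference of 0.19, or 0.12 without Ly49G+ replicate 1. Psmd5 measured 36.5, 39.0 and 38.5 CPM in Ly49G+ and 34.4, 36.9 and 39.6 CPM in Ly49I+, with a difference of 0.04. The groups overlapped for all 3 chaperones of the base.

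Psmg1, a chaperone of the core, measured 10.1, 11.8 and 11.6 CPM in Ly49G+ and 10.5, 9.01 and 9.32 CPM in Ly49I+, a difference of 0.22 ± 0.16 (SE, n = 3 per group; adjusted p 0.447 by limma). Psme3, the nuclear activator cap, measured 177, 196 and 225 CPM in Ly49G+ and 174, 215 and 177 CPM in Ly49I+. Psme4, a single-chain activator, measured 144, 136 and 128 CPM in Ly49G+ and 142, 132 and 126 CPM in Ly49I+. The activators overlapped between groups, with differences of 0.08 and 0.03. Psmf1, a proteasome inhibitor, measured 29.2, 26.8 and 28.3 CPM in Ly49G+ and 29.1, 31.7 and 30.8 CPM in Ly49I+, a difference of -0.12. Psme3ip1, which carries the prefix as a binding partner of Psme3, measured 74.9, 76.3 and 85.97 CPM in Ly49G+ and 76.5, 78.3 and 75.8 CPM in Ly49I+, a difference of 0.04. None of these 5 genes was called.

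**Figure D3:**
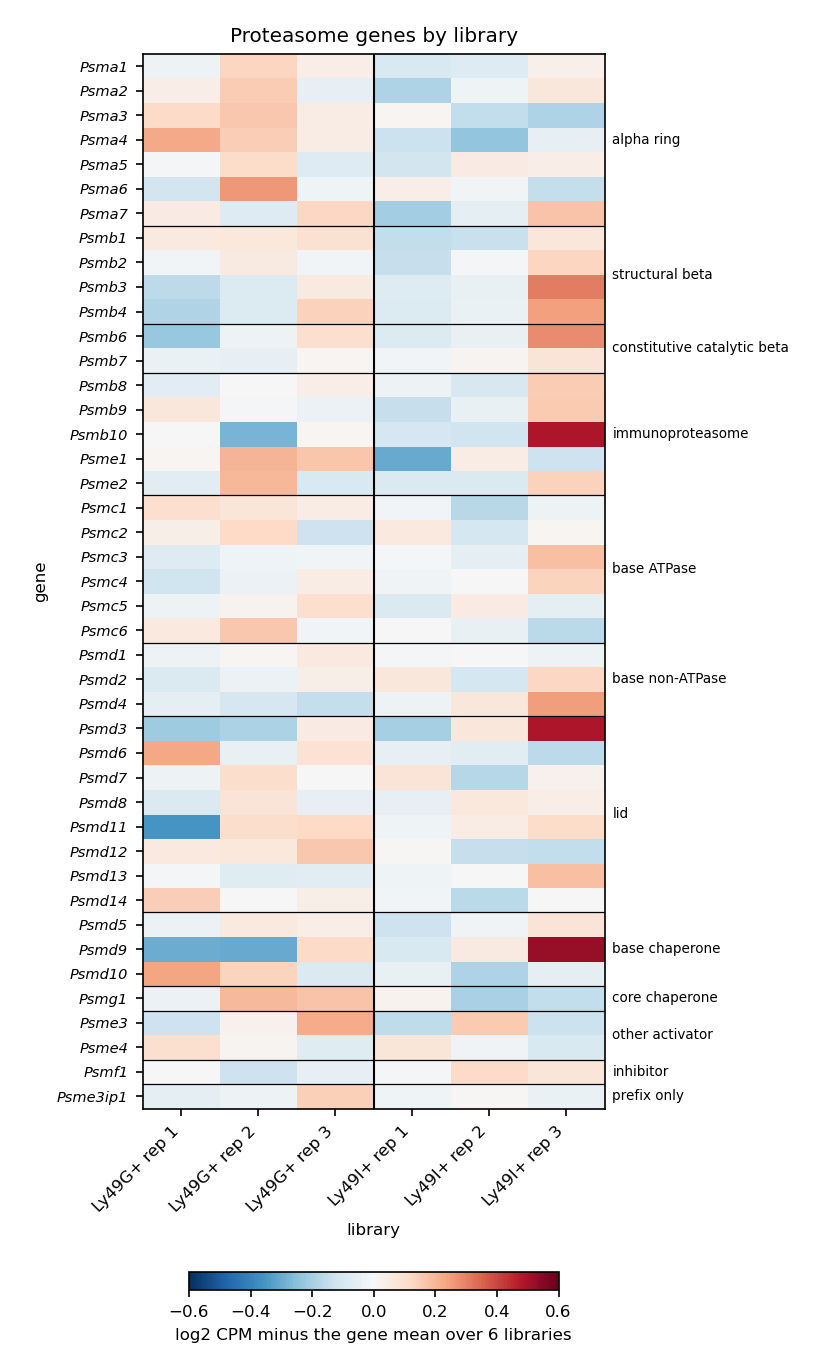
Log2 CPM of each proteasome gene minus its mean over the 6 libraries, in columns by library and rows by role; red is above the gene's mean and blue below. Ly49I+ replicate 3 holds the deepest reds, in Psmb10, Psmd3 and Psmd9.

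Levels were compared between genes only per kilobase of transcript, as CPM divided by the length of 1 transcript model per gene. Psme1 was the highest of the 43 members at 216, and ranked first also when the length of all its exons was used. Psme3 followed at 72.8, then Psmb2 at 68.4 and Psma4 at 68.2. The lowest members were assembly factors and the inhibitor: Psmd10 at 12.7, Psmg1 at 9.95, Psmd5 at 8.52, Psmf1 at 7.69 and Psmd9 at 4.19. Medians by role were 42.4 for the alpha ring, 57.7 for the structural beta subunits, 60.0 for the immunoproteasome genes, 40.3 for the base ATPases and 23.8 for the lid. The immunoproteasome median was the value of Psme2, whose level is uncertain because of the windows shared with Psme2b. Psmb8 at 64.8 and Psmb10 at 46.2 were of the order of the constitutive Psmb6 at 64.0 and Psmb7 at 34.3, and Psmb9 stood at 27.7. These levels depend on the transcript model chosen. The length of all exons moved Psmb3 from rank 5 to rank 18 and Psmb7 from rank 21 to rank 35. By that length Psmb10 stood at 35.5 and Psmb7 at 11.6.

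**Figure D4:**
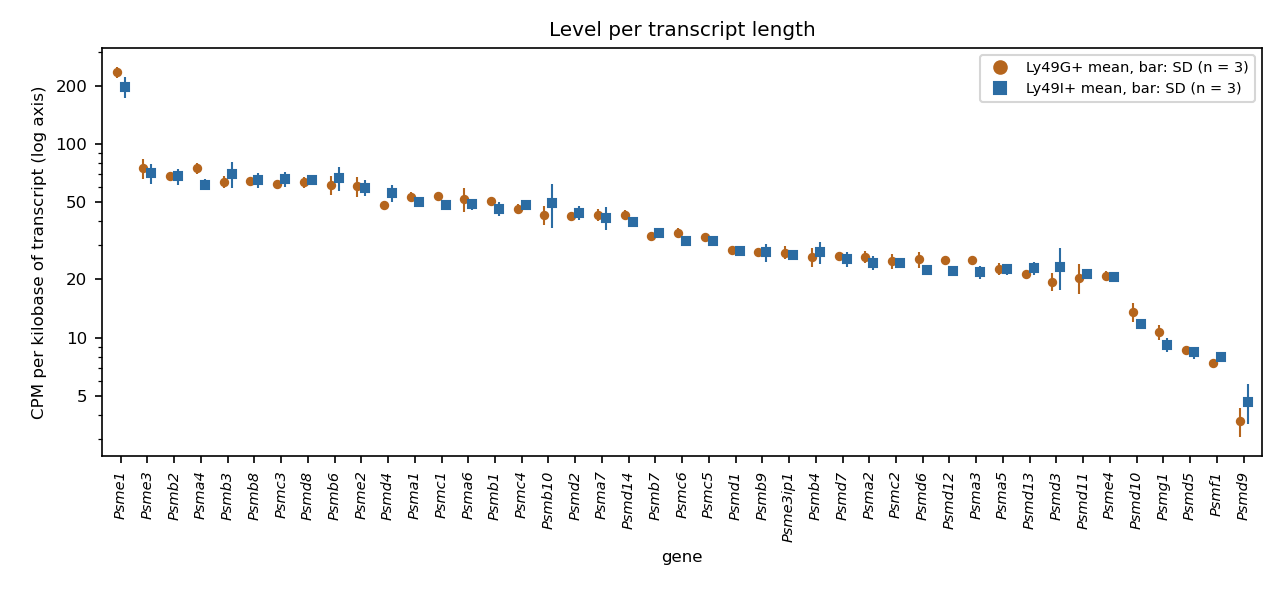
Level per kilobase of transcript (CPM per kilobase, log axis) of the 43 proteasome genes, ordered by their mean over 6 libraries, with the mean and SD of each group (n = 3). Psme1 is the highest and Psmd9 the lowest, with overall means of 216 and 4.19, a 51.5-fold range.

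Ly49I+ replicate 3 was the library that most often held a member's highest value. It was the highest for 17 of 43 members (39.5%), where it was the highest for 27.8% of all genes, while Ly49I+ replicate 1 was the highest for 0 members (14.3% of all genes) and Ly49I+ replicate 2 for 1 (13.7%). For 19 of the 43 members, leaving that library out turned the direction of the difference or made it more than 1.5 times smaller; the other libraries did so for 6 to 14 members each. Of the 17 members highest in Ly49I+ replicate 3, 15 had a transcript GC content above the members' median of 49.8%. Across the 43 members, GC content and the deviation of Ly49I+ replicate 3 from the gene mean had a Pearson r of 0.629, and across 8275 genes an r of 0.67. These r values describe genes of the same libraries, which are not independent replicates.

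GC content ran alongside the group difference as well, with r = -0.596 over the 43 members and r = -0.315 over 8275 genes. Of the 21 members above the median GC content, 8 had a difference above 0 and their median was -0.06. Of the 22 at or below it, 19 had a difference above 0 and their median was 0.09. After GC correction Ly49I+ replicate 3 was the highest library for 15 members and 18.02% of all genes. Psme1, at 54.9% GC, had the highest difference of the 21 members above the median GC content.

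**Figure D5:**
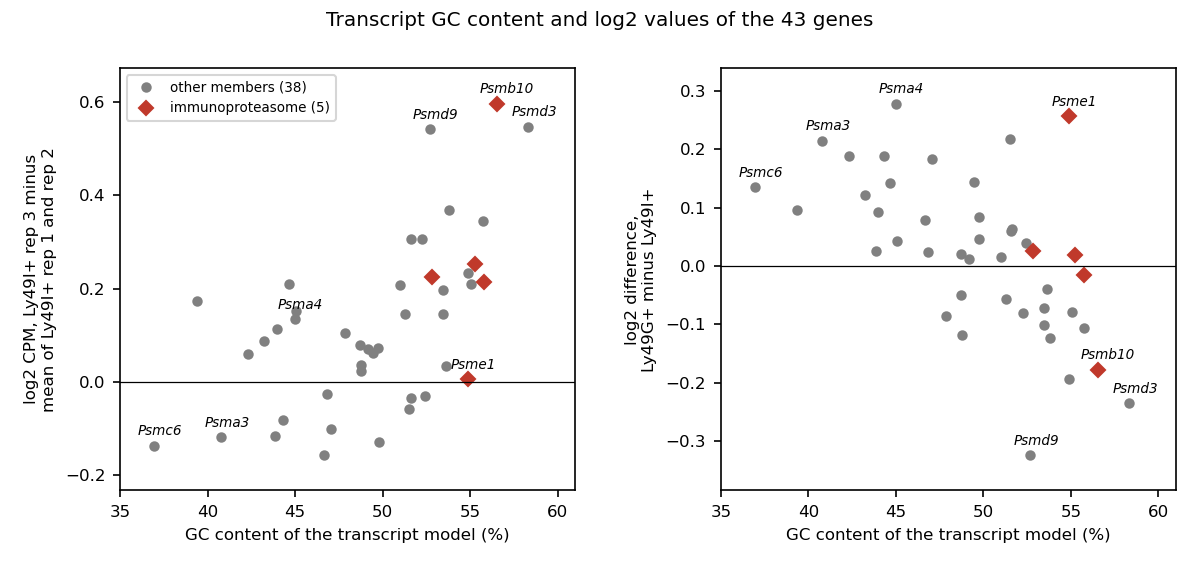
GC content of each member's transcript model (percent) against, on the left, log2 CPM in Ly49I+ replicate 3 minus the mean of the other Ly49I+ libraries, and on the right, the difference between groups. Members rich in GC tend to lie higher on the left and lower on the right. Psme1 (54.9% GC) is at 0.005 on the left and 0.26 on the right, and Psmg1 (51.5% GC) at -0.06 and 0.22. Psmc5 and Psme3ip1, at 51.6% and 52.4% GC, also lie low on the left, at -0.03 each.

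Pairs of members followed each other over the 6 libraries to varying degrees, with a median Pearson r of 0.159 over 903 pairs. Psmb3, Psmb4, Psmb6 and Psmc4 were each other's nearest members, at r of 0.956 to 0.984, and Psmb7 and Psmd9 had the highest r, 0.996. Psme1 was nearest to Psmc5 at 0.848, and Psma4 to Psmc1 at 0.942. All these values come from the same 6 libraries and carry their depth, their GC trend and the group difference.

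Other genes of proteasome function were taken from a list of 51, of which 48 had values. Of the 48, 0 were called in either direction, where the same test called 3.59% of all genes. Groups did not overlap for 12 of the 48 (25%), and for 25.8% of all genes. Among peptide-loading genes, B2m, the light chain of MHC class I, measured 8292, 9126 and 8564 CPM in Ly49G+ and 6549, 8115 and 5669 CPM in Ly49I+. Every Ly49G+ library was higher, and the difference was 0.37 ± 0.13 (SE, n = 3 per group), with an adjusted p by limma of 0.148, or 0.0202 with the replicate block. Erap1, the aminopeptidase that trims peptides for MHC class I, measured 205, 219 and 227 CPM in Ly49G+ and 180, 190 and 182 CPM in Ly49I+. Those groups did not overlap either, and the difference was 0.24 ± 0.07 (SE, n = 3 per group; adjusted p 0.103 by limma, 0.0353 with the block). Pdia3, a chaperone of the loading complex, differed by 0.21, or 0.14 without Ly49G+ replicate 2. Of the 11 peptide-loading genes, 6 were above 0 and 5 below, with a median of 0.003. Those below were H2-D1 (-0.21), Tap1 (-0.12), H2-K1 (-0.09), Tapbp (-0.07) and Tap2 (-0.04), each highest in Ly49I+ replicate 3. Without that library the differences were 0.07 for H2-D1, -0.02 for Tap1, 0.05 for H2-K1, -0.003 for Tapbp and 0.15 for Tap2. GC content was 41.2% for B2m, 41.5% for Erap1, 42.2% for Canx, 46.9% for Pdia3, 50% for Calr and 53.3% for Tapbpl. It was 55.85% to 57.3% for the 5 genes below 0, and its part in these differences was not tested.

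At the other end of that list stood Ubqln4, which shuttles ubiquitinated proteins to the proteasome, at 75.3, 73.0 and 87.3 CPM in Ly49G+ and 80.2, 101 and 107 CPM in Ly49I+. The groups overlapped through Ly49I+ replicate 1, and the difference was -0.28 ± 0.12 (SE, n = 3 per group; adjusted p 0.216 by limma, 0.0409 with the block). Adrm1, a ubiquitin receptor of the base, differed by -0.28, with 44.6 CPM in Ly49I+ replicate 3 and 25.6 to 27.9 CPM in the other libraries; without that library the difference was -0.04. Nfe2l1, the transcription factor that induces proteasome genes, differed by -0.21 (adjusted p 0.256 by limma), or -0.11 without Ly49I+ replicate 3. The smallest differences of the list were those of the chaperone Calr (0.003), the unfoldase Vcp (-0.006) and the transcription factor Mafk (0.013). Estimates were above 0 for 26 of the 48 genes and their median was 0.02. The number called was 3 with the replicate block (B2m, Erap1 and Ubqln4), 1 without Ly49I+ replicate 1 (Ubqln4) and 1 without Ly49I+ replicate 2 (B2m); these fits called 11.7%, 7.56% and 2.43% of all genes.

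The genes of the sorted receptors were checked first. Klra7, which encodes Ly49G, stood at 917 to 1037 CPM in Ly49G+ and 10.8 to 11.7 CPM in Ly49I+, and Klra9, which encodes Ly49I, at 74.1 to 84.1 CPM and 990 to 1194 CPM, both called in the direction of the sort. Klra3, which encodes Ly49C, stood at 243 to 255 CPM in Ly49G+ and 183 to 213 CPM in Ly49I+ (difference 0.30, adjusted p 0.0604 by limma), higher in the cells gated as negative for the antibody shared by Ly49C and Ly49I. All 9 NK markers had values in every library. Among them 1 was called higher in Ly49G+, Eomes (difference 0.39), and 2 higher in Ly49I+, Prf1 (-0.49) and Tbx21 (-0.42). Of 10 monocyte and macrophage markers, 9 were called higher in Ly49I+, with a summed level of 1158 to 1195 CPM in Ly49G+ and 1713 to 2712 CPM in Ly49I+. Most of that sum was Itgam, which NK cells express too, and the other 9 markers summed to 22.6, 34.7 and 55.4 CPM in Ly49G+ and 326, 1124 and 252 CPM in Ly49I+, a 15.1-fold ratio of means with Ly49I+ replicate 2 the highest. Of 12 T cell markers, 7 had values and 5 were called higher in Ly49G+, at sums of 364 to 433 CPM and 246 to 264 CPM. Trbc1 and Cd28 made up most of those sums, and Cd3d, Cd3e, Cd3g and Trac together stood at 69.4, 114 and 89.9 CPM in Ly49G+ and 22.0, 28.2 and 25.0 CPM in Ly49I+, a 3.64-fold ratio of means. Of 9 B cell markers, 3 had values and 0 were called, at sums of 278 to 389 CPM in Ly49G+ and 183 to 414 CPM in Ly49I+. No marker with values was at 0 in any library. These other cells also express proteasome genes, and their part in the differences above was not tested; in these bulk libraries fewer cells of a type and less RNA per cell cannot be told apart.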

How the data were processed

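RNA was sequenced from 3 Ly49G+ and 3 Ly49I+ libraries as pairs of 100-base reads, made with a stranded kit from 0.4 µg of total RNA per the labels' protocols. CASAVA 1.8.2, STAR 2.3.0, limma and mm10 are named in the submitters' processing notes. No source used here names the read counter or the low-count filter. The authors deposited log2 CPM for 8520 genes, in the form of limma's voom (0.5 added to each count, 1 to the total). Solving that form gave whole reads for 100% of values within 0.001 read. Genes outside the table held 1.43% to 1.71% of reads. Library totals were 33599679 reads or more, and the median gene held 1567.5 to 1945.5 reads per library. The shares of counting error and of spread between libraries in the values were not tested.

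Symbols came by gene number from RefSeq GRCm38.p6 (8429 genes) and GENCODE (1 gene), and 90 genes found none. Groups were compared on the deposited log2 values with limma 3.58.1 in R 4.3.3 (empirical Bayes with intensity trend, two-sided, Benjamini-Hochberg over 8520 genes at 0.05), after the steps were tested on simulated data; adjusted p-values come from it. Ratios used exact permutation tests in scipy 1.17.1; the planned ratio of Psmb8 to Psmb5 was not analysed here. Members and gene lists were chosen with earlier results of these data known. Values were given by library for all immunoproteasome and constitutive catalytic genes, for members with groups that do not overlap, and for the extremes of each role in mean and difference. Of the other pathway genes, those called and the 3 largest differences in each direction and the 3 smallest are named. The peptide-loading genes are named too. Transcript length, GC content and shared 100-base windows used GENCODE transcript models. Same-numbered libraries deviated together over all genes (r = 0.371, 0.114 and 0.156, each above 0.1), which by the criterion used makes the numbers pairs. Ly49G+ replicate 3 with Ly49I+ replicate 2 reached 0.359, and Ly49G+ replicate 2 with Ly49I+ replicate 1 reached 0.115. Each exceeded the same-numbered value of its Ly49G+ library. The labels do not say what a number shares, so results with the replicate block rest on an uncertain pairing. Alternatives were the replicate block, other scalings and filters, leaving out each library and, chosen after seeing the data, a lowess correction for GC content.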

Additional observations from a re-analysis of the deposited data

How the results depend on the processing

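The count of called members was 0 of 43 under the fits without the intensity trend, with a robust prior, voom weights, median centring, quantile normalization, log2(CPM + 1), a mean log2 CPM of at least 4 (41 members tested) and without each library in turn. It was 2 with the replicate block, 1 after GC correction and 1 with both; for the pathway list it was 3 with the replicate block and 0 to 1 without single libraries. Genes called in all numbered 306, against 993 with the block, 538 after GC correction, 674 with both, and 94 to 644 without single libraries. The block changed no other call among members. Of 686 alternative values for members, 633 kept direction and side of the threshold and 49, over 24 genes, turned direction. GC correction, with or without the block, turned Psma2 (-0.0407), Psmb6 (0.0146), Psmb8 (0.105), Psmc3 (0.0295), Psmc4 (0.0109), Psmc6 (-0.0282), Psmd1 (-0.0136), Psmd5 (-0.0212), Psmd8 (0.0468) and Psme4 (-0.0581); median centring turned Psmb8 (0.0026). Leaving out single libraries gave differences for Psma5 from -0.0397 to 0.0546, Psma6 from -0.0326 to 0.157, Psma7 from -0.0239 to 0.166, Psmb10 from -0.282 to 0.0212, Psmb2 from -0.0513 to 0.0839, Psmb3 from -0.193 to 9.87e-05, Psmb4 from -0.171 to 0.0209, Psmb6 from -0.184 to 0.00878, Psmb8 from -0.068 to 0.0552, Psmb9 from -0.0471 to 0.102, Psmc2 from -0.0342 to 0.0881, Psmd1 from -0.000431 to 0.0444, Psmd11 from -0.167 to 0.07, Psmd5 from -0.00708 to 0.0937, Psmd7 from -0.0285 to 0.0961, Psme2 from -0.0679 to 0.1, Psme3 from -0.0068 to 0.181, Psme3ip1 from -0.0235 to 0.076 and Psme4 from -0.0158 to 0.0692. The ratio of Psmb10 to Psmb7 ran from -0.227 to 0.0445 without single libraries. Causes of these turns were not tested. With 3 libraries a group, the median standard error of a member's difference was 0.09 on the log2 scale.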
